A study of Mus musculus with 12 samples.

Results

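The genes of antigen presentation were followed in lymph node (LN) T cells of B6 and CD8Dual mice: the heavy chains of MHC class I, the MHC class II chains, and the proteins that cut, carry and load their peptides. Members were the rows of the count table whose symbol starts with H2- or is B2m, Tap1, Tap2, Tapbp, Tapbpl, Psmb8, Psmb9, Psmb10, Psme1, Psme2, Erap1, Nlrc5 or Ciita and whose mean was 10 or more counts, which left 38 of 58 rows with such a symbol, among 49585 rows in all. RNA-seq had been done on LN T cells from male mice 6 to 10 weeks old, in 4 groups of 3 samples. From C57BL/6 mice came CD4 (B6 CD4) and CD8 (B6 CD8) T cells, and from CD8Dual mice (also named 8in4) came CD8.1 T cells, whose co-receptor is encoded by the Cd4 locus, and CD8.2 T cells, whose co-receptor is encoded by the Cd8 locus. CD8Dual mice, homozygous for the change, make no CD4: CD8 (as CD8α.1 with CD8β) is read from their Cd4 locus, while CD8 from the untouched Cd8 locus carries the CD8α.2 form. The alteration is present in all cells of the animal and not in T cells alone. All 4 populations were sorted as TCRβ+ CD62L+ cells, and the study's methods add that they were CD44-. RNA came from pooled sorted cells. The labels do not say how many mice a sample holds, so P values measure the spread between these samples. Cd4 stood at 907 to 1003 CPM (counts scaled to library size, as edgeR gives them) in B6 CD4, 0.109 to 0.337 in B6 CD8, 47.1 to 51.4 in CD8.1 and 1.11 to 1.79 in CD8.2 T cells. Cd8a stood at 0.682 to 1.49, 1389 to 1478, 179 to 201 and 1431 to 1492. The B6 groups thus carried the co-receptor RNA that their labels name. Counts per gene do not tell the CD8α.1 form from CD8α.2, so they could not check the labels CD8.1 and CD8.2 in this way. CD8.1 T cells held Cd4 counts although CD8Dual mice make no CD4, and the source of these counts was not tested.

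MHC class I molecules are made of a heavy chain and β2-microglobulin and display peptides from proteins made in the cell to CD8 T cells, and nearly all nucleated cells carry them. The peptides are cut by the proteasome, carried into the endoplasmic reticulum by the TAP transporter, trimmed there, and fitted to the heavy chain by tapasin. MHC class II molecules display peptides of proteins taken up from outside to CD4 T cells and are made mainly by B cells, dendritic cells and thymic epithelium; resting mouse T cells are known for making little or none. CD8Dual mice were made to study how thymocytes signalled through MHC class I choose their lineage, and the comparisons follow the groups of that design. B6 CD4 was set against B6 CD8, CD8.1 against CD8.2, and each CD8Dual population against the B6 population whose co-receptor comes from the same locus. The difference between the first comparisons was tested as an interaction.

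Libraries held 18667474 to 37110502 counts, the deepest being CD8.2 replicate 3, and 3 counts were worth 0.0875 to 0.167 CPM. All 38 members passed the filter on low counts and were among the 13118 genes tested. Of the 20 rows with a matching symbol but a lower mean, 14 had no count in any sample, among them most genes of the H2-M10 family and H2-Ea-ps; H2-T3, which encodes the thymus leukaemia antigen, had 0 to 4 counts a library. Of the members, 30 lie on chromosome 17, most of them within the MHC region, and 34 are annotated as protein coding. The loci of 21 overlap another gene on the other strand, and whether counting used strand is not given in the sources used here. Together the members took 1.41% to 1.46% of the counts in B6 CD4, 1.45% to 1.499% in B6 CD8, 1.55% to 1.70% in CD8.1 and 1.51% to 1.65% in CD8.2 libraries.

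In B6 mice 18 of the 38 members differed between CD4 and CD8 T cells at an adjusted P under 0.05, 6 higher and 12 lower in CD4 T cells, where 23.1% of all tested genes did. In CD8Dual mice 20 members differed, 6 higher and 14 lower in CD8.1 T cells, against 28.7% of all genes. In both comparisons, which use different samples, 17 members were called in the same direction, and 15.8% of all tested genes were; no member was called in opposite directions. The 6 that were higher in B6 CD4 and in CD8.1 T cells were H2-Aa, H2-Ab1, H2-Eb1, H2-DMb2, H2-Q2 and H2-T24. The 11 that were lower were Tapbpl, Erap1, Psmb10, Psme1, Psme2, H2-Q6, H2-Q7, H2-Q10, H2-Oa, H2-DMa and Nlrc5. The members' median log2 fold change was -0.05 in B6 and -0.16 in CD8Dual mice, beside -0.0011 and -0.0047 for all tested genes. No member changed more than 5-fold, the limit that the study set for its own gene calls, and how many of all genes did was not counted.

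**Figure D1:**
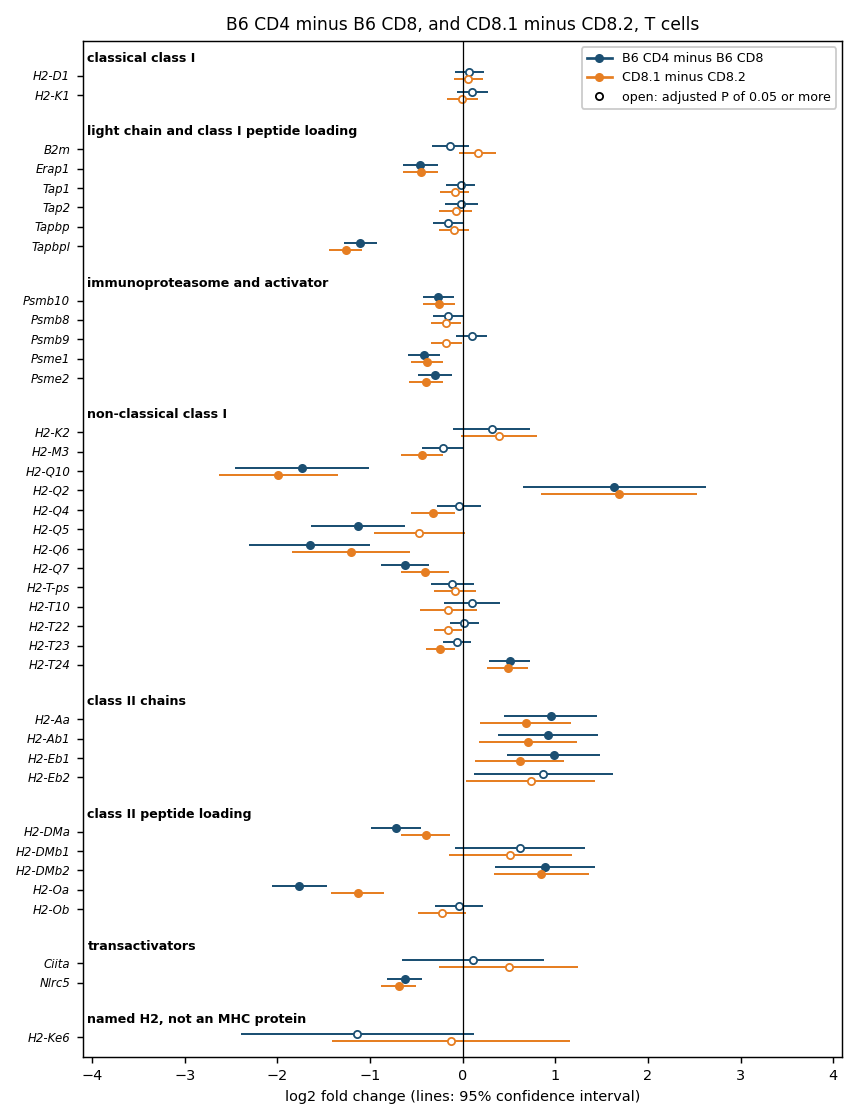
Log2 fold change (x axis) of each of the 38 members, by role, for B6 CD4 minus B6 CD8 (dark blue) and CD8.1 minus CD8.2 (orange), with 95% confidence intervals from edgeR; filled points have an adjusted P under 0.05. H2-K1 and H2-D1 lie near 0 while Tapbpl, H2-Oa, H2-Q6 and H2-Q10 lie more than 1 below it in both strains.

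Against the B6 population with the same co-receptor locus, CD8.1 T cells differed from B6 CD4 T cells in 10 members (8 higher, 2 lower), where 12.8% of all genes did. For CD8.2 against B6 CD8 the count was 9 (7 higher, 2 lower), where 7.94% did; it was 17 when only these groups were fitted, and 5 without B6 CD8 replicate 3 or CD8.2 replicate 1. Members called the same way in both numbered 7, 5 higher in CD8Dual cells (H2-Aa, H2-Ab1, H2-Eb1, H2-DMa and H2-Ob) and 2 lower (Nlrc5 and H2-T24), against 2.87% of all genes; with no filter on low counts they were 11, and without B6 CD4 replicate 1, B6 CD4 replicate 2 or CD8.1 replicate 2 they were 4. For the interaction, edgeR called 0 members, and 1.87% of all genes. At an unadjusted P under 0.05 stood 3 members (B2m, H2-Oa and Psmb9); limma-voom called 0 and DESeq2 called 1, H2-Oa. In none of the 4 comparisons between groups were 14 members called: H2-D1, Tap1, Tap2, Tapbp, Psmb8, Psmb9, H2-K2, H2-T10, H2-T22, H2-T-ps, H2-Eb2, H2-DMb1, Ciita and H2-Ke6, the last of which is named for its place in the MHC and encodes a steroid dehydrogenase.

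The classical class I heavy chain genes H2-K1 (chr17:33996017-34000347, minus strand, build GRCm38) and H2-D1 (chr17:35262730-35267499, plus strand) were, with B2m (chr2:122147686-122153083, plus strand), the most abundant members. Per kilobase of annotated exon, the mean over the groups was 5212 CPM for B2m, 1213 for H2-K1 and 978 for H2-D1, and the next member, Psme2, stood at 183. H2-K1 and H2-D1 share 0.072% and 2.62% of their read-length transcript windows with other annotated genes.

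H2-K1 was measured at 3443, 3525 and 3172 CPM in B6 CD4 and 3288, 3245 and 2917 in B6 CD8 T cells. In CD8Dual mice it was at 3537, 3969.8 and 4051 in CD8.1 and 3864, 3918 and 3819 in CD8.2 T cells. Values of the populations overlapped in each strain, and all CD8.2 samples were above all B6 CD8 samples. The log2 fold change was 0.10 for B6 CD4 minus B6 CD8 (95% interval -0.05 to 0.26) and -0.01 for CD8.1 minus CD8.2 (-0.16 to 0.15). Between strains it was 0.30 ± 0.07 (adjusted P = 0.0235) for CD8.2 against B6 CD8, a call that was lost when any of those 6 samples was left out (adjusted P of 0.0522 to 0.0962). It was 0.19 ± 0.07 (adjusted P = 0.104) for CD8.1 against B6 CD4. H2-D1 stood at 2374, 2541 and 2367 CPM in B6 CD4 and 2382, 2366 and 2174 in B6 CD8 T cells. It stood at 2528, 2862 and 2814 in CD8.1 and 2577, 2724 and 2558 in CD8.2 T cells. Its log2 fold changes ran from 0.06 to 0.18 over the 4 comparisons and none passed the test. B2m stood at 3676, 3962 and 3928 CPM in B6 CD4 and 4179, 4225 and 4295 in B6 CD8 T cells. CD8Dual samples held 4306, 5760.3 and 5528 in CD8.1 and 4561, 4788 and 4583 in CD8.2 T cells. Every CD8.1 sample was above every B6 CD4 sample, with a log2 fold change of 0.43 ± 0.09 (adjusted P = 0.00669), and the other comparisons of B2m did not pass the test.

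The promoters of these genes are shown because H2-K1 and H2-D1 differed little between the populations while H2-Q6 and H2-Q7, with like promoters, were called. RefSeq (GRCm38.p6) gives a promoter window for 29 of the 38 members. The 200 bases before the start of H2-K1 (chr17:34000348-34000547, minus strand), H2-D1 (chr17:35262894-35263093, plus), H2-Q6 (chr17:35424650-35424849, plus), H2-Q7 (chr17:35438955-35439154, plus) and B2m (chr2:122147487-122147686, plus) are given 5′ to 3′ with matches on either strand in capitals. The capitals mark an interferon response core (GAANNGAAA in the heavy chain genes and, in B2m, the longer form with GAAA on both sides of any 2 bases), the Y box CCAAT, which reads ATTGG on the other strand, the X1 box core GCAAC and TATAAA.
H2-K1: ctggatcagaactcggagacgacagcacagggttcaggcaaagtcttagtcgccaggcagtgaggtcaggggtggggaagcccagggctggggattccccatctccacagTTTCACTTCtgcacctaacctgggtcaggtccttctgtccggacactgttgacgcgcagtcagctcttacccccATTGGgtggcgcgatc
H2-D1: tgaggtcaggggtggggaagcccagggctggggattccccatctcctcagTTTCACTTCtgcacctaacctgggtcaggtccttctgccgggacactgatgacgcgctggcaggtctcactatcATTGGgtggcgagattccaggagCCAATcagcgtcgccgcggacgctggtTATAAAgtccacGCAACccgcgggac
H2-Q6: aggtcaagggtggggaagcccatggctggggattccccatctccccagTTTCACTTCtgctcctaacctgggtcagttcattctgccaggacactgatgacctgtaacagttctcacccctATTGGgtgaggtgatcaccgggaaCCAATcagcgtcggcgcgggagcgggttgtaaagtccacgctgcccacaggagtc
H2-Q7: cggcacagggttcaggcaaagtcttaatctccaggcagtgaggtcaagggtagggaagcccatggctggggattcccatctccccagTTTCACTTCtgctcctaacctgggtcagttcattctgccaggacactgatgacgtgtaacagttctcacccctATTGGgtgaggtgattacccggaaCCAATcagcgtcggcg
B2m: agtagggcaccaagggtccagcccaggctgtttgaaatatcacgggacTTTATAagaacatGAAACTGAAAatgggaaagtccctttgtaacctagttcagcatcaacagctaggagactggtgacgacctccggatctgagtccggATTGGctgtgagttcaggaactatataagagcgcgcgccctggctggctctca

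In the 250 bases before the start, 7 of the 29 member promoters held GAANNGAAA (H2-K1, H2-D1, H2-Q4, H2-Q6, H2-Q7, H2-Q10 and H2-M3) and 3 held the longer interferon-stimulated response element core (B2m, H2-T22 and H2-T23), beside 6.31% and 2.98% of all 32851 promoter windows. No promoter held both, and the first motif was chosen after the sequences were seen. The windows end at different points of like sequence. GAANNGAAA lies at -90 from the start in H2-K1 and -113 in H2-Q7, but at -150 in H2-D1 and -152 in H2-Q6. A motif absent from a window may thus lie past its end. For H2-K1, a second window from another start, not shown or counted here, holds a further Y box at -6. A Y box was found in 22 of 29 member promoters and in 33.8% of all. TATAAA was in 6 of 29 and in 12.4% of all, and GCAAC in 11 of 29 and in 29.9% of all. In local alignments, the H2-K1 and H2-D1 windows were 91.0% identical over 177 positions, those of H2-K1 and H2-Q6 86.9% over 176 and those of H2-Q6 and H2-Q7 97.2% over 211. The genes behind these windows had log2 fold changes between B6 CD4 and B6 CD8 of 0.10 for H2-K1, -0.62 for H2-Q7 and -1.65 for H2-Q6.

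**Figure D2:**
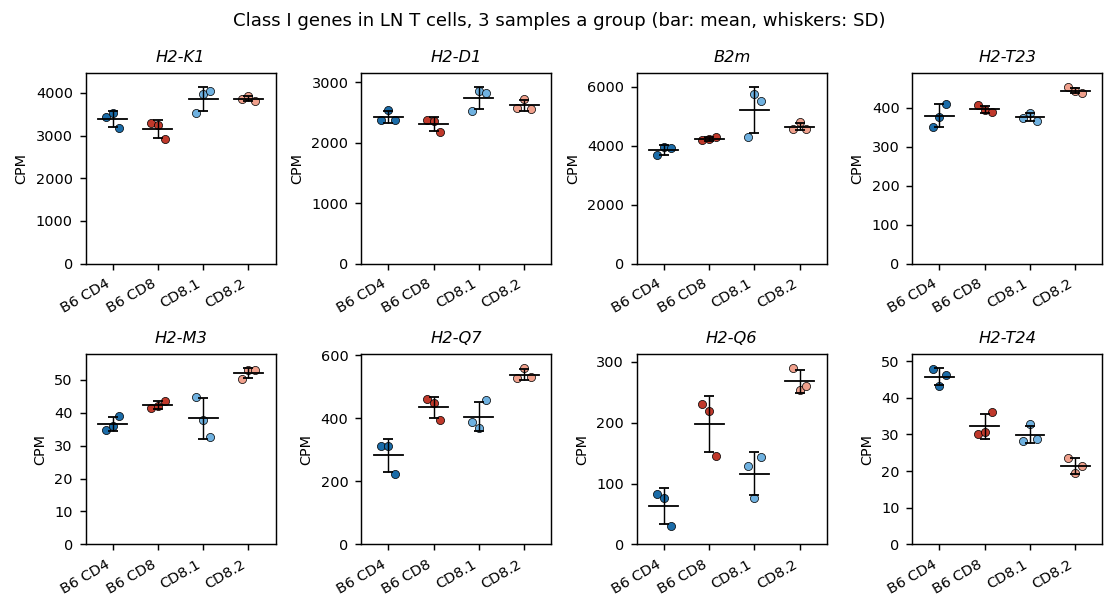
CPM (y axes, from 0) of 8 class I genes in the 3 samples of each group; points are samples, bars the mean and whiskers the SD. H2-K1 and H2-D1 differ little between groups, H2-Q6 and H2-Q7 are lower in B6 CD4 than in B6 CD8 T cells, and H2-T24 is highest in B6 CD4 and lowest in CD8.2 T cells.

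Of the 13 non-classical class I genes, 6 were called in B6 mice (2 higher and 4 lower in CD4 T cells) and 8 in CD8Dual mice (2 higher and 6 lower in CD8.1), beside 23.1% and 28.7% of all genes. Among the 13, H2-K2 and H2-T-ps are annotated as pseudogenes, and H2-Q5 and H2-T10 as polymorphic pseudogenes. H2-Q6 (chr17:35424850-35430055) and H2-Q7 (chr17:35439155-35443773) encode heavy chains of the Qa-2 type. H2-Q6 stood at 83.2, 76.9 and 29.6 CPM in B6 CD4 and 231, 219 and 146 in B6 CD8 T cells. Values in CD8Dual mice were 128, 76.7 and 144 in CD8.1 and 289.9, 254 and 261 in CD8.2 T cells. The groups did not overlap within either strain, and B6 CD4 replicate 3 lay far below the other B6 CD4 samples. The log2 fold change was -1.65 ± 0.30 (adjusted P = 0.000693) in B6 and -1.21 ± 0.29 (adjusted P = 0.00632) in CD8Dual mice; without B6 CD4 replicate 3 the first was -1.31. H2-Q7 changed less, at 313, 313 and 223 CPM in B6 CD4 and 460.4, 447 and 396 in B6 CD8 T cells. The CD8Dual samples showed 388, 371 and 458 in CD8.1 and 527, 559 and 529.6 in CD8.2 T cells, and the log2 fold change was -0.62 ± 0.12 (adjusted P = 0.000982) in B6 and -0.41 ± 0.12 (adjusted P = 0.0162) in CD8Dual mice. CD8.1 T cells had more H2-Q7 RNA than B6 CD4 T cells, by 0.52 ± 0.12 (adjusted P = 0.0107). H2-Q6 and H2-Q7 share 8.21% and 8.53% of their read-length transcript windows with other genes, each other included, so that reads could be split between them in counting.

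H2-Q10, known as a liver gene for a secreted heavy chain, and H2-Q2 were near the limit of detection. H2-Q10 had 8 to 11 counts a library in B6 CD4, 21 to 47 in B6 CD8, 11 to 21 in CD8.1 and 50 to 104 in CD8.2 T cells. Its log2 fold change was -1.73 ± 0.34 (adjusted P = 0.00119) in B6 and -1.99 ± 0.30 (adjusted P = 0.000126) in CD8Dual mice. CD8.2 minus B6 CD8 passed the test too (1.18 ± 0.27, adjusted P = 0.0163) but was lost under 4 alternatives. H2-Q2 had 12 to 21 counts in B6 CD4, 2 to 8 in B6 CD8, 26 to 40 in CD8.1 and 8 to 19 in CD8.2 T cells, with 1.64 ± 0.46 (adjusted P = 0.0168) and 1.69 ± 0.39 (adjusted P = 0.00438). The H2-Q2 call in B6 mice was lost without B6 CD4 replicate 1, B6 CD8 replicate 1 or B6 CD8 replicate 2 (adjusted P of 0.0502 to 0.0773). H2-Q5, annotated as a polymorphic pseudogene, was at 3.06 to 5.86 CPM in B6 CD4 and 8.37 to 11.96 in B6 CD8 T cells (-1.13 ± 0.23, adjusted P = 0.00194), and CD8.1 and CD8.2 did not pass the test (-0.47 ± 0.22, adjusted P = 0.134). H2-Q10 and H2-Q5 share 5.24% and 8.86% of their read-length windows with other genes, H2-Q7 among them. Per kilobase of exon, group means were 0.09 to 0.71 CPM for H2-Q10 and 66.4 to 126 for H2-Q7. Whether reads of H2-Q7 were counted for H2-Q10 or H2-Q5 was not tested.

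H2-T24 (chr17:36005695-36020560, minus strand) changed the other way. It stood at 47.8, 43.2 and 46.2 CPM in B6 CD4 and 29.99, 30.5 and 36.1 in B6 CD8 T cells. The matching CD8Dual values were 28.3, 32.7 and 28.8 in CD8.1 and 23.5, 19.4 and 21.2 in CD8.2 T cells. B6 CD4 samples were above all others and CD8.2 samples below all others, while CD8.1 samples overlapped with B6 CD8. The log2 fold change was 0.51 ± 0.10 (adjusted P = 0.00118) for B6 CD4 minus B6 CD8 and 0.49 ± 0.10 (adjusted P = 0.00213) for CD8.1 minus CD8.2. Between strains it was -0.61 ± 0.10 (adjusted P = 0.00145) for CD8.1 minus B6 CD4 and -0.59 ± 0.10 (adjusted P = 0.00247) for CD8.2 minus B6 CD8. Its locus overlaps A930015D03Rik on the other strand.

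H2-T23 encodes the heavy chain of Qa-1, which displays leader peptides of other class I chains to CD94/NKG2 receptors, and H2-M3 encodes a heavy chain that presents formylated bacterial peptides. H2-T23 was at 351, 377 and 410.0 CPM in B6 CD4 and 406, 393 and 388 in B6 CD8 T cells. In CD8Dual mice it was at 374, 388 and 367 in CD8.1 and 452, 442 and 438 in CD8.2 T cells. H2-M3 was at 34.7, 36.0 and 38.8 CPM in B6 CD4 and 41.4, 42.0 and 43.6 in B6 CD8 T cells. It stood at 44.8, 37.6 and 32.5 in CD8.1 and 50.2, 52.8 and 52.8 in CD8.2 T cells. For both genes all CD8.2 samples were above all CD8.1 samples, with log2 fold changes of -0.24 ± 0.07 (adjusted P = 0.0152) and -0.44 ± 0.10 (adjusted P = 0.00391). In B6 mice the differences were -0.06 ± 0.07 (adjusted P = 0.597) and -0.21 ± 0.10 (adjusted P = 0.154). That the strains differ in this was not shown, since the interaction had an adjusted P of 0.445 for H2-T23 and 0.513 for H2-M3. H2-Q4 was lower in CD8.1 T cells than in CD8.2 (-0.32 ± 0.11, adjusted P = 0.0366), a call lost under 4 alternatives. H2-T22, H2-T10, H2-K2 and H2-T-ps had log2 fold changes between -0.33 and 0.39 in all 4 comparisons, none past the test; H2-T22 and H2-T10 share 25.6% and 23.4% of their windows with other genes.

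Among the 6 genes of the light chain and of class I peptide loading, Tapbpl and Erap1 were called in both strains and Tap1, Tap2 and Tapbp in no comparison. Beside them, 15.8% of all tested genes were called the same way in both strains. Tapbpl (chr6:125223933-125231860, minus strand) encodes TAPBPR, a relative of tapasin that edits the peptides of class I molecules outside the TAP complex. It stood at 57.6, 52.6 and 56.0 CPM in B6 CD4 and 124.6, 126 and 107 in B6 CD8 T cells. CD8Dual samples held 50.5, 53.9 and 53.3 in CD8.1 and 131, 122 and 125.3 in CD8.2 T cells. B6 CD4 and CD8.1 samples lay together on the low side, CD8.2 samples lay with B6 CD8 samples on the high side, and no sample fell between. The log2 fold change was -1.11 ± 0.08 (adjusted P = 3.41e-08) for B6 CD4 minus B6 CD8 and -1.26 ± 0.08 (adjusted P = 9.94e-09) for CD8.1 minus CD8.2, a difference of over 2-fold in each strain. Between strains the differences were -0.07 ± 0.08 and 0.08 ± 0.08, neither past the test. Tapbpl shares no window with another gene, although its locus overlaps Vamp1 on the other strand.

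Erap1 (chr13:74639568-74693201), the aminopeptidase that trims peptides in the endoplasmic reticulum, was at 202, 205 and 203 CPM in B6 CD4 and 256, 269 and 312 in B6 CD8 T cells. Values in CD8Dual mice were 209, 182 and 177 in CD8.1 and 258, 261 and 259 in CD8.2 T cells. The B6 CD4 and CD8.1 samples were all below the rest, with a log2 fold change of -0.46 ± 0.08 (adjusted P = 0.000676) in B6 and -0.45 ± 0.08 (adjusted P = 0.000733) in CD8Dual mice. Of its windows 9.72% are shared with Cast, which overlaps it on the other strand. Tap1, a subunit of the peptide transporter, was at 291, 281 and 309 CPM in B6 CD4 and 309, 289.6 and 296 in B6 CD8 T cells. The CD8Dual samples showed 264, 299 and 263 in CD8.1 and 288, 301 and 288 in CD8.2 T cells. Its groups overlapped in both strains, and its 95% intervals were -0.17 to 0.13 in B6 and -0.24 to 0.06 in CD8Dual mice on the log2 scale. Tap2 had intervals of -0.18 to 0.15 and -0.24 to 0.09, and Tapbp, which encodes tapasin, of -0.31 to -0.01 and -0.24 to 0.06; 12.6% of the windows of Tapbp are shared with Gm19412.

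**Figure D3:**
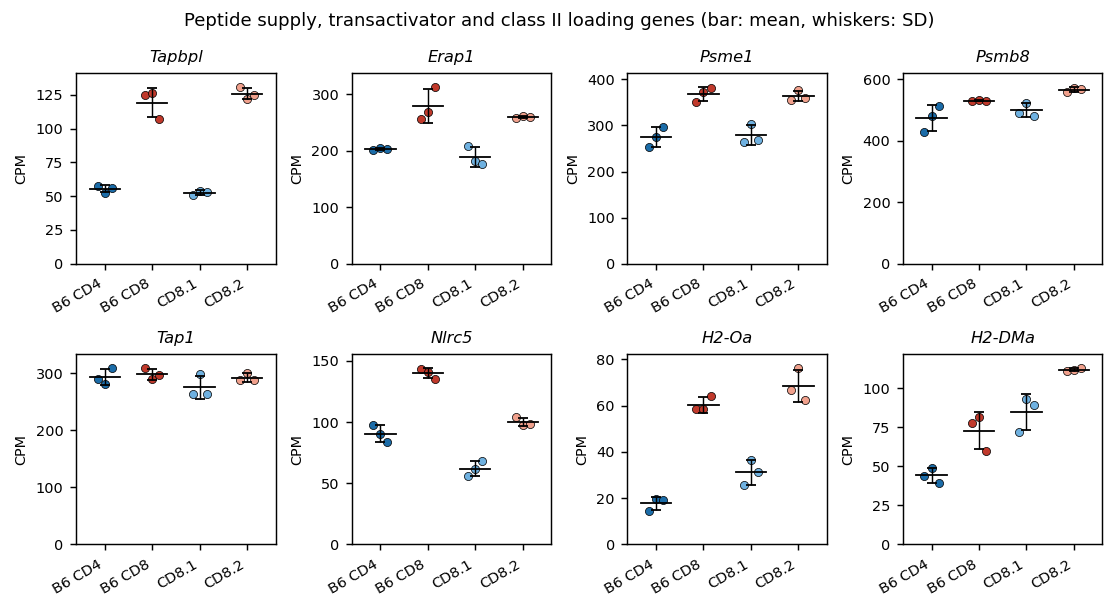
CPM (y axes, from 0) of 8 genes of peptide trimming, the proteasome, peptide transport, transactivation and class II loading, with samples as points, means as bars and SDs as whiskers. Tapbpl separates the B6 CD4 and CD8.1 samples from the other samples, Tap1 does not, and Nlrc5 is lower in CD8Dual than in B6 T cells of the same co-receptor locus.

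The immunoproteasome replaces the catalytic subunits of the ordinary proteasome in immune cells, and PA28, made of Psme1 and Psme2, opens its chamber. Of these 5 genes, 3 were called in both strains, each lower in B6 CD4 and in CD8.1 T cells. Of all tested genes, 15.8% were called the same way in both strains. Psme1 was at 253, 274 and 297 CPM in B6 CD4 and 351, 372 and 380.2 in B6 CD8 T cells. The matching CD8Dual values were 264, 304 and 269 in CD8.1 and 356, 376 and 359.9 in CD8.2 T cells, without overlap between the groups of either strain (-0.42 ± 0.08, adjusted P = 0.000729, and -0.38 ± 0.08, adjusted P = 0.00155). Psme2 followed at -0.30 ± 0.08 and -0.39 ± 0.08, with 14.7% of its windows shared with its copy Psme2b, and Psmb10 at -0.26 ± 0.07 and -0.26 ± 0.07. Psmb8 stood at 430.4, 479.9 and 514 CPM in B6 CD4 and 529, 534 and 531 in B6 CD8 T cells. In CD8Dual mice it was at 492, 525 and 482 in CD8.1 and 559, 573 and 569 in CD8.2 T cells. These values did not overlap in either strain but did not pass the test (adjusted P of 0.12 and 0.0654). Psmb9, which lies head to head with Tap1, had 0.10 ± 0.07 (adjusted P = 0.382) and -0.18 ± 0.07 (adjusted P = 0.0842). None of the 5 was called between strains, where 12.8% of all genes were for CD8.1 minus B6 CD4 and 7.94% for CD8.2 minus B6 CD8. In the list of 6 ordinary and thymic proteasome genes, Psmb11, the thymoproteasome subunit, had 0 counts in all 12 libraries. Of the 5 tested, none was called in B6 mice and Psmb6 was called in CD8Dual mice (0.33 ± 0.10, adjusted P = 0.0228). In these comparisons 23.1% and 28.7% of all genes were called.

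Nlrc5 (chr8:94434356-94527272, plus strand) encodes the transactivator of class I genes, and Ciita (chr16:10480059-10528418, plus strand) that of class II genes. Nlrc5 stood at 97.7, 90.6 and 83.6 CPM in B6 CD4 and 143, 141 and 135 in B6 CD8 T cells. It stood at 55.9, 61.9 and 67.9 in CD8.1 and 104, 97.3 and 98.6 in CD8.2 T cells. Within each strain the groups did not overlap, CD8.1 samples were below all others, B6 CD8 samples were above all others, and B6 CD4 and CD8.2 samples overlapped between them. It was called in all 4 comparisons. The log2 fold change was -0.63 ± 0.08 (adjusted P = 3.37e-05) for B6 CD4 minus B6 CD8 and -0.69 ± 0.08 (adjusted P = 1.61e-05) for CD8.1 minus CD8.2. Between strains it was -0.55 ± 0.08 (adjusted P = 0.000935) for CD8.1 minus B6 CD4 and -0.49 ± 0.08 (adjusted P = 0.00229) for CD8.2 minus B6 CD8. Beside the lower Nlrc5 of CD8.1 against B6 CD4 T cells, the log2 fold change was 0.19 for H2-K1, 0.17 for H2-D1, 0.43 for B2m, -0.09 for Tap1 and -0.09 for Psmb9, of which B2m alone passed the test, in the other direction. Ciita was at 2.11 to 3.59 CPM in B6 CD4, 2.07 to 2.69 in B6 CD8, 2.28 to 4.72 in CD8.1 and 1.40 to 3.89 in CD8.2 T cells, 43 to 101 counts a library, and was called in no comparison. Its interval for CD8.1 minus CD8.2, -0.24 to 1.24, does not settle the direction.

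Class II chains were low in all groups and, on average, highest in CD8.1 T cells. H2-Aa (chr17:34282744-34287823, minus strand), H2-Ab1 (chr17:34257689-34269419, plus) and H2-Eb1 (chr17:34305867-34316674, plus) encode the I-A α and β and the I-E β chains. Per kilobase of exon they stood at 22.2, 19.97 and 24.5 CPM on average over the groups, beside 1213 for H2-K1. H2-Aa was at 68.5, 75.8 and 91.4 CPM in B6 CD4 and 46.1, 38.1 and 37.7 in B6 CD8 T cells. CD8Dual samples held 157, 146 and 98.05 in CD8.1 and 93.0, 109 and 49.6 in CD8.2 T cells. The B6 CD4 samples were above the B6 CD8 samples without overlap, the groups of CD8Dual mice overlapped, and CD8.2 replicate 3 was the lowest of its group. The 3 genes were called in all 4 comparisons. On the log2 scale the differences were 0.92 to 0.98 for B6 CD4 minus B6 CD8 and 0.62 to 0.70 for CD8.1 minus CD8.2. Between strains they were 0.77 to 0.85 for CD8.1 minus B6 CD4 and 1.04 to 1.21 for CD8.2 minus B6 CD8. For H2-Eb2, another β chain gene, the differences were 0.66 to 0.87 and passed the test in none, though with the replicate number as a block it did for B6 CD4 minus B6 CD8 (0.88, adjusted P = 0.0196). Without CD8.2 replicate 3 the differences within CD8Dual mice were 0.40 for H2-Aa, 0.40 for H2-Ab1 and 0.33 for H2-Eb1, and the 3 calls were lost (adjusted P of 0.132, 0.139 and 0.189). Calls were also lost for CD8.1 minus B6 CD4 (H2-Aa under 10 alternatives, H2-Ab1 under 7 and H2-Eb1 under 3). For CD8.2 minus B6 CD8, H2-Aa and H2-Ab1 were lost without B6 CD8 replicate 2 or 3 or CD8.2 replicate 1 or 2, and in B6 mice H2-Ab1 was lost without B6 CD8 replicate 2 or 3. With DESeq2 the adjusted P for CD8.1 minus CD8.2 was 0.0666, 0.0812 and 0.095.

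Cd79a, Igkc and some other B cell genes moved with these chains. In B6 mice Cd79b, Ighm, Cd22 and Ighd did not, and the summed list was lower in CD4 than in CD8 T cells. For CD8.1 minus CD8.2, 10 of 11 B cell markers had a positive log2 fold change. Cd79b (-0.24) and Ighm (0.05) did not move with the chains there. For CD8.2 minus B6 CD8, 9 of 11 were positive, and Cd22 (-0.02), Ighm (-0.08) and Ighd (0.08) did not move with the chains. All 11 were positive for CD8.1 minus B6 CD4. Cd79a, a chain of the B cell receptor, was at 21.7, 22.3 and 27.8 CPM in B6 CD4 and 14.1, 11.2 and 11.9 in B6 CD8 T cells. Values in CD8Dual mice were 46.4, 55.4 and 35.7 in CD8.1 and 28.3, 31.5 and 13.3 in CD8.2 T cells. CD8.2 replicate 3 was again the lowest of its group. Of 11 B cell markers, 8 were called in B6 mice (6 higher in CD4 T cells, and Cd79b and Ighm lower) and 5 in CD8Dual mice (all higher in CD8.1), beside 23.1% and 28.7% of all genes. Between strains 4 were called for CD8.1 minus B6 CD4 (all higher) and 3 for CD8.2 minus B6 CD8 (all higher), beside 12.8% and 7.94% of all genes. The summed level of the list, most of it Ighm, ran from 602.7 to 648 CPM in B6 CD4, 687 to 711 in B6 CD8, 774 to 976 in CD8.1 and 641 to 775 in CD8.2 libraries. No marker was at 0 in a whole group. H2-Aa ranged 4.16-fold over the 12 samples, while its ratio to Cd79a stayed between 2.63 and 3.74, a 1.42-fold range. The ratio to Cd79a ranged 1.30-fold for H2-Ab1, 1.5-fold for H2-Eb1, 1.51-fold for H2-DMb2, 1.20-fold for Cd74, the invariant chain, and 1.40-fold for Igkc, the immunoglobulin κ constant gene. By comparison it ranged 4.03-fold for H2-K1, 5.14-fold for H2-Ob, 5.97-fold for H2-DMa and 9.69-fold for H2-Oa. In bulk samples fewer cells of a type and less RNA per cell cannot be told apart; the part of B cell RNA in the class II result was not tested. Of 13 dendritic and myeloid markers, Xcr1, Clec9a, Cd209a, Siglech and Zbtb46 were too low to be tested, and Cd209a was at 0 in all CD8.1 samples. Of the 8 tested, 2 were called in B6 mice (Itgam higher and Itgax lower in CD4 T cells) and 3 in CD8Dual mice (Itgam and Fcer1g higher and Itgax lower in CD8.1). In these comparisons 23.1% and 28.7% of all genes were called. Between strains, Lyz2 (1.61), Csf1r (2.16), Fcer1g (1.54) and Cst3 (0.31) were called for CD8.1 minus B6 CD4, with the log2 fold changes given. For CD8.2 minus B6 CD8, Lyz2 was higher (2.12) and Itgax lower (-1.97). Of all genes, 12.8% were called for CD8.1 minus B6 CD4 and 7.94% for CD8.2 minus B6 CD8. Lyz2, which encodes a lysozyme of myeloid cells, was at 2.14 to 5.06 CPM in B6 CD4, 1.39 to 3.99 in B6 CD8, 10.1 to 14.1 in CD8.1 and 6.5 to 16.2 in CD8.2 T cells. The list, most of it Cst3, summed to 66.6 to 82.2 CPM in B6 CD4, 80.6 to 84.8 in B6 CD8, 99.2 to 109 in CD8.1 and 81.0 to 105 in CD8.2 libraries; its part was not tested either.

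**Figure D4:**
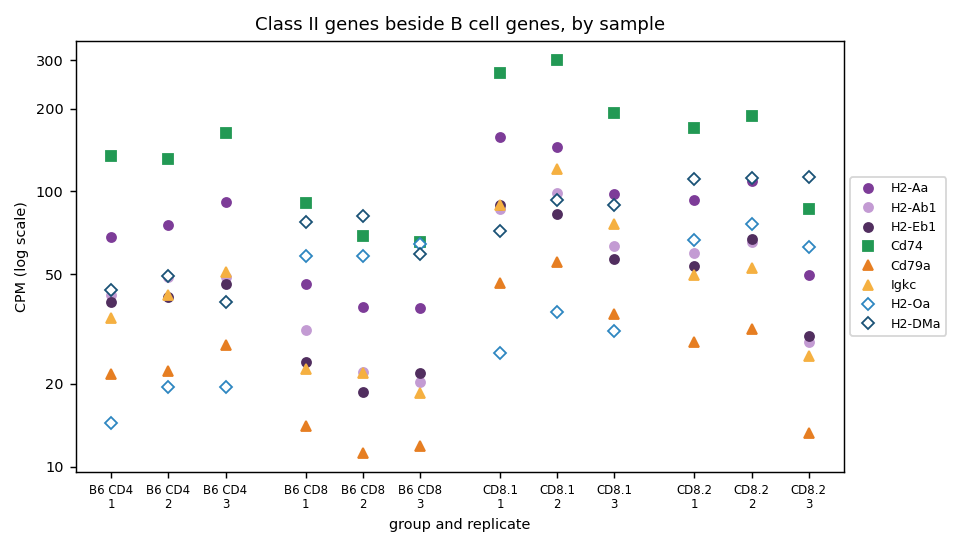
CPM on a log scale (y axis) of class II chain genes (H2-Aa, H2-Ab1, H2-Eb1, filled circles), Cd74 (squares), B cell genes (Cd79a and Igkc, triangles) and the loading genes H2-Oa and H2-DMa (open diamonds) in each of the 12 samples (x axis). The filled symbols mostly shift together from sample to sample, with CD8.2 replicate 3 the lowest of its group in all of them. From CD8.1 replicate 1 to 2, H2-Aa and H2-Eb1 fall while Cd79a and Igkc rise. On average the open diamonds go the other way between the populations of each strain, though H2-Oa too is lowest of its group in CD8.2 replicate 3.

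Class II peptide loading had 5 members, which divided between these patterns. H2-DMa (chr17:34119541-34139101) encodes the α chain of H2-DM, which exchanges peptides on class II, and H2-Oa (chr17:34092340-34095234) and H2-Ob (chr17:34238903-34254414) encode the chains of H2-O, which restrains H2-DM. H2-Oa stood at 14.4, 19.4 and 19.4 CPM in B6 CD4 and 58.4, 58.4 and 64.3 in B6 CD8 T cells. The CD8Dual samples showed 25.9, 36.6 and 31.1 in CD8.1 and 66.8, 76.2 and 62.6 in CD8.2 T cells. The B6 CD4 samples were lowest, the CD8.1 samples came next with no overlap, and CD8.2 samples overlapped with B6 CD8 samples above them. Its log2 fold change was -1.76 ± 0.13 (adjusted P = 8.24e-08) for B6 CD4 minus B6 CD8, -1.13 ± 0.13 (adjusted P = 1.06e-05) for CD8.1 minus CD8.2, and 0.81 ± 0.14 (adjusted P = 0.00167) for CD8.1 minus B6 CD4. CD8.2 minus B6 CD8 did not pass the test (0.18 ± 0.13). The difference between strains in this change was 0.63 ± 0.18, the largest relative to its error among the members, at an adjusted P of 0.121 with edgeR. Its adjusted P was under 0.05 with no filter on low counts (0.00219), with DESeq2 (0.0389), with the replicate number as a block (0.0413) and without CD8.1 replicate 1 (0.0124). Of its windows 7.19% are shared with BC051537 on the other strand.

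H2-DMa was at 43.8, 49.1 and 39.5 CPM in B6 CD4 and 77.7, 81.3 and 59.5 in B6 CD8 T cells. The matching CD8Dual values were 71.8, 93.0 and 89.3 in CD8.1 and 111, 112 and 113 in CD8.2 T cells, lower in B6 CD4 and CD8.1 than in the other group of the strain. It was called in all 4 comparisons, at -0.72 ± 0.12, -0.40 ± 0.12, 0.94 ± 0.12 and 0.62 ± 0.12 for B6 CD4 minus B6 CD8, CD8.1 minus CD8.2, CD8.1 minus B6 CD4 and CD8.2 minus B6 CD8. H2-Ob was at 44.7 to 56.2 CPM in B6 CD4 and 42.1 to 55.8 in B6 CD8 and at 67.2 to 83.2 in CD8.1 and 82.6 to 90.8 in CD8.2 T cells. All CD8Dual samples were above all B6 samples (0.58 ± 0.12, adjusted P = 0.00614, and 0.76 ± 0.12, adjusted P = 0.0011), and the populations of a strain did not differ past the test. H2-DMb2, for a β chain of H2-DM, went the way of the class II chains, with 0.89 ± 0.25 (adjusted P = 0.016) in B6 and 0.85 ± 0.24 (adjusted P = 0.0142) in CD8Dual mice. The first call was lost without B6 CD4 replicate 3 or B6 CD8 replicate 3, and the second without CD8.1 replicate 2 or CD8.2 replicate 3. H2-DMb1, at 18 to 51 counts a library, was called in none; it shares 7.34% of its windows with H2-DMb2.

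Promoters of class II genes carry an X1 box followed at a set distance by a Y box, and they are shown for 2 chains and for H2-Oa because H2-Oa went against the chains in both strains. The 200 bases before the RefSeq start (GRCm38.p6) of H2-Aa (chr17:34287824-34288023, minus strand), H2-Eb1 (chr17:34305667-34305866, plus) and H2-Oa (chr17:34092179-34092378, plus) are given with the same motifs in capitals.
H2-Aa: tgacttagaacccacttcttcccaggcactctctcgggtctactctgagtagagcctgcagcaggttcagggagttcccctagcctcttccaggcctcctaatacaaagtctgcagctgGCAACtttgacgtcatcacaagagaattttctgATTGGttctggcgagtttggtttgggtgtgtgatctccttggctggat
H2-Eb1: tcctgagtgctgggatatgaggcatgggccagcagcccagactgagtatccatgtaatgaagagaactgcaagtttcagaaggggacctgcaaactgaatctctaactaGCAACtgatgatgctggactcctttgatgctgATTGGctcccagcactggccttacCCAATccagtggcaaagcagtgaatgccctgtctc
H2-Oa: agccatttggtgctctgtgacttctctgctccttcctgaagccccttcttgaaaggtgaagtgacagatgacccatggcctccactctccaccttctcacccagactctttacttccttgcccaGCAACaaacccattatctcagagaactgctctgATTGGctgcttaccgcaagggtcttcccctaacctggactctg

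The start of GCAAC lay 33 bases before that of ATTGG in H2-Aa and H2-Oa and 32 bases before it in H2-Eb1. Within 250 bases before the start, such a pair at 30 to 33 bases, a spacing chosen after the sequences were seen, was found in 5 of 29 member promoters (H2-Aa, H2-Eb1, H2-Eb2, H2-Oa and H2-Ob) and in 0.174% of all promoter windows. The 5 genes with this pair had log2 fold changes of 0.95 (H2-Aa), 0.98 (H2-Eb1), 0.87 (H2-Eb2, not called), -0.04 (H2-Ob, not called) and -1.76 (H2-Oa) between B6 CD4 and B6 CD8 T cells.

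Between the strains, 28 of 38 members had a positive log2 fold change in CD8.1 minus B6 CD4 and 31 of 38 in CD8.2 minus B6 CD8, with medians of 0.18 and 0.17 against 0.0025 and -0.0035 for all genes. The CD8.1 samples also differed from B6 CD4 in regulatory T cell markers, of which 4 of 4 were called and higher, beside 12.8% of all genes called. They summed to 271 to 299 CPM in CD8.1 and 73.2 to 109.8 in B6 CD4 T cells, beside 5.24 to 9.67 in B6 CD8 and 7.62 to 10.5 in CD8.2 T cells. Of these, Foxp3, the factor that defines these cells, was at 102, 149 and 168 CPM in CD8.1 and at 32.6, 37.7 and 44.5 in B6 CD4 T cells. For CD8.2 minus B6 CD8, 2 of the 4 markers were called, where 7.94% of all genes were. Foxp3 (1.96 ± 0.47, adjusted P = 0.019) and Ctla4 (1.79 ± 0.26, adjusted P = 0.000763) were higher in CD8.2 T cells. Il2ra (0.67) and Ikzf2 (-0.84) did not pass the test. Cd44, a marker of activated T cells, was at 67.9 to 77.7 CPM in CD8.1 and 33.4 to 37.5 in B6 CD4 T cells (1.04 ± 0.12, adjusted P = 8.02e-05). Their part in the member differences was not tested. In these samples strain and the altered Cd4 locus cannot be told apart.

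**Figure D5:**
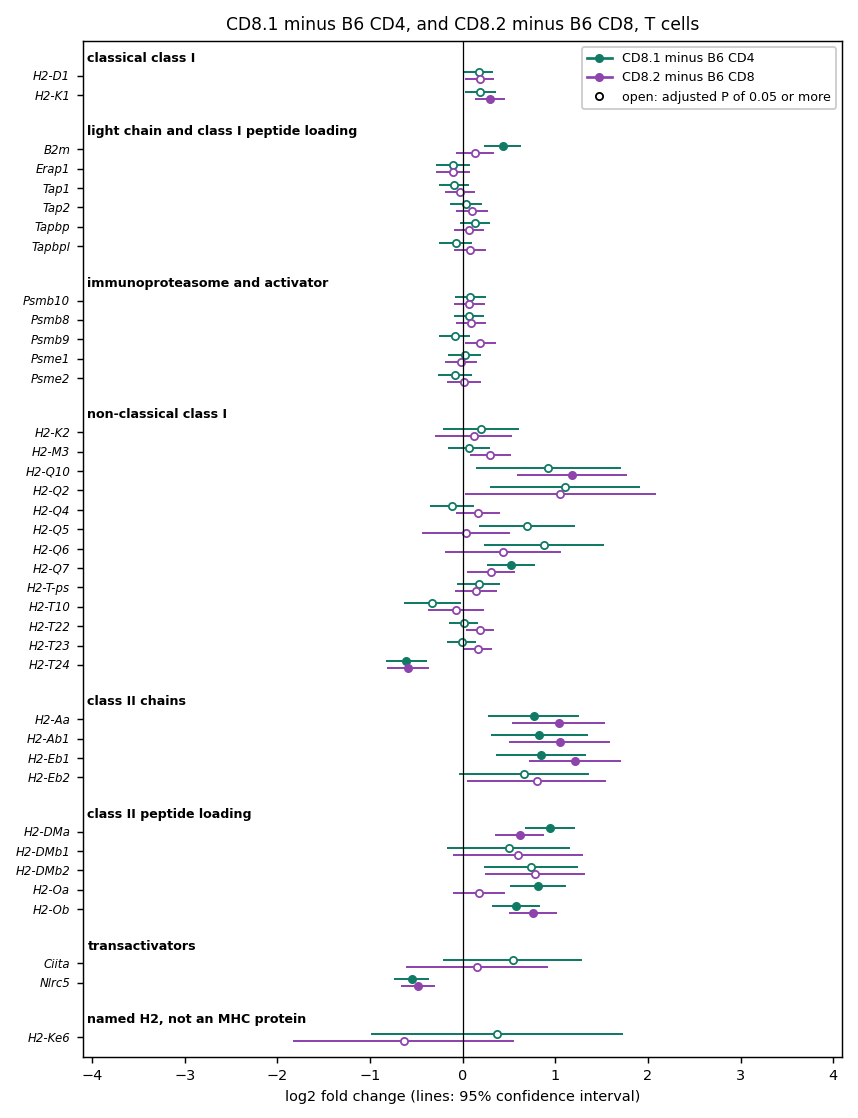
Log2 fold change (x axis) of the 38 members for CD8.1 minus B6 CD4 (green) and CD8.2 minus B6 CD8 (purple), by role, with 95% confidence intervals; filled points have an adjusted P under 0.05. Class II chains, H2-DMa and H2-Ob lie to the right and Nlrc5 and H2-T24 to the left of 0 in both.

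Other genes of the class II pathway were followed as a list of 11, of which 10 were tested. In B6 mice 6 were called, Lgmn, Ifi30, Cd74, Cd83 and Ctss higher in CD4 T cells and Ctsl lower, and the same 6 were called in CD8Dual mice in the same directions, beside 23.1% and 28.7% of all genes. Lgmn, for an asparagine-specific lysosomal protease, stood at 25.8, 24.5 and 30.6 CPM in B6 CD4 and 1.68, 1.82 and 1.30 in B6 CD8 T cells. In CD8Dual mice it was at 24.6, 35.3 and 27.9 in CD8.1 and 2.51, 2.94 and 1.78 in CD8.2 T cells. It separated the groups more than any member did, with 4.06 ± 0.20 (adjusted P = 3.93e-10) in B6 and 3.64 ± 0.19 (adjusted P = 1.03e-09) in CD8Dual mice. Ifi30, for a lysosomal thiol reductase, was higher by 1.14 ± 0.17 (adjusted P = 0.00014) in B6 CD4 and 1.39 ± 0.17 (adjusted P = 2.2e-05) in CD8.1 T cells, and Ctsl, for cathepsin L, was lower in both, at -0.66 ± 0.12 (adjusted P = 0.000528) and -0.94 ± 0.12 (adjusted P = 1.87e-05) on the log2 scale. Of this list 2 genes were called for CD8.1 minus B6 CD4 (Cd83 and Cd74) and 3 for CD8.2 minus B6 CD8 (Cd74, Cd83 and Ctsl), all higher in CD8Dual cells, beside 12.8% and 7.94% of all genes. Rfx5, Rfxap and Rfxank, whose products bind the X box, were called in no comparison. In the list of 4 class I loading chaperones, Canx, for calnexin, was lower in B6 CD4 and in CD8.1 T cells (-0.24 ± 0.08, adjusted P = 0.0447, and -0.25 ± 0.08, adjusted P = 0.028). Calr, for calreticulin, was higher in CD8.1 than in CD8.2 (0.29 ± 0.09, adjusted P = 0.0236) and than in B6 CD4 T cells (0.38 ± 0.09, adjusted P = 0.0139).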

How the data were processed

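The authors sorted LN T cells, made cDNA libraries from pooled-cell RNA, sequenced read pairs, aligned them to mm10 with STAR and counted genes with RSEM; the deposited values are raw counts, as whole numbers for 49585 rows in 12 samples. Submitters' processing notes also name limma. Versions, annotation and use of strand are not given in the sources used here. The counts were fitted with edgeR 4.0.16 in R 4.3.3 (TMM, filterByExpr, glmQLFit and glmQLFTest; all 12 samples, 1 coefficient per group). P values were adjusted by Benjamini-Hochberg over 13118 genes, and a gene was called at an adjusted P under 0.05. Errors of log2 fold changes are standard errors. CPM use TMM-scaled library sizes. DESeq2 1.42.0, limma-voom 3.58.1, other filters, a replicate block and leaving out each sample were alternatives. On simulated data with 200 changed genes of 13118, 76% of 2-fold and 95% of 4-fold changes were recovered for B6 CD4 minus B6 CD8.

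Positions, exons and shared windows of read length came from GENCODE M21 (GRCm38). Figures used matplotlib 3.10.9 under Python 3.11.15. Column names gave each column its sample. Replicates differed by more than sampling noise. Same-numbered B6 CD4 and B6 CD8 samples deviated together (r = 0.23, 0.24 and 0.37 across genes), which the labels do not explain; CD8.1 and CD8.2 samples did not (r = -0.07, 0.14 and 0.13). The members, the lists and the promoter motifs were chosen with earlier results of these data known. Any member may be named, with values by sample for the main genes of each role and for called members; of other lists, called genes are named, and the ratio to Cd79a and the genes named as uncalled were chosen after values were seen.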

Additional observations from a re-analysis of the deposited data

How the results depend on the processing

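Counts of called members kept within 1.5 times of the values given under DESeq2 size factors, limma-voom and a mean of 1 CPM for all 5 comparisons, and no called log2 fold change turned its direction under any alternative. By the study's own limits (more than 5-fold, unadjusted P under 0.05) 0 members were called in each comparison between groups. The share of all genes that passed these limits was not counted, so the 0 is not a result about the members. Asking for at least 1.5-fold left 10 for CD8.1 minus CD8.2 and 6 for CD8.1 minus B6 CD4. CD8.2 minus B6 CD8 gave 17 when only those groups were fitted. The interaction gave 2 members with no filter on low counts (H2-Oa and H2-Q6), 1 with the DESeq2 Wald test and 3 without CD8.1 replicate 1 (H2-Oa, B2m and H2-M3). Members called the same way between strains in both populations were 11 with no filter on low counts. With the replicate block, members called were 19 for B6 CD4 minus B6 CD8, 22 for CD8.1 minus CD8.2, 9 for each comparison between strains and 1 (H2-Oa) for the interaction, and H2-Eb2 was gained in both strains and H2-Q5 in CD8Dual mice; with a block shared by the strains the adjusted P of H2-Aa for CD8.1 minus B6 CD4 was 0.0508, and the block changed no other call. Leaving out each sample in turn gave 16 to 21 for B6 CD4 minus B6 CD8, 14 to 22 for CD8.1 minus CD8.2, 7 to 11 for CD8.1 minus B6 CD4, 5 to 13 for CD8.2 minus B6 CD8, 0 to 3 for the interaction, 12 to 18 for members called the same way within both strains and 4 to 8 for those called the same way between strains; the 5 for CD8.2 minus B6 CD8 came without B6 CD8 replicate 3 or CD8.2 replicate 1, and the 4 without B6 CD4 replicate 1 or 2 or CD8.1 replicate 2. The calls lost most often were those of H2-Eb1 (12 alternatives) and of H2-Aa and H2-Ab1 (8 each) for CD8.1 minus CD8.2, and of H2-Aa (10) and H2-Ab1 (7) for CD8.1 minus B6 CD4. The cause was not tested. Depth limits the low members most: H2-Ke6 had 2 to 27 counts a library, H2-Q2 2 to 40 and H2-Q10 8 to 104.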

Other observations

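Genes of the interferon pathway, which is known to raise class I genes, differed between the populations as well; values in parentheses are log2 fold changes for B6 CD4 minus B6 CD8 and for CD8.1 minus CD8.2. Of 16 in the list, 8 were called in B6 mice (2 higher and 6 lower in CD4 T cells) and 8 in CD8Dual mice (1 higher and 7 lower in CD8.1), beside 23.1% and 28.7% of all genes. Ifngr1, the ligand-binding chain of the interferon-γ receptor, stood at 96.8, 94.0 and 94.8 CPM in B6 CD4 and 193, 189.6 and 199 in B6 CD8 T cells. It stood at 141, 120.5 and 129 in CD8.1 and 212, 234 and 236 in CD8.2 T cells (-1.03 ± 0.07, adjusted P = 4.07e-08, and -0.80 ± 0.07, adjusted P = 8.54e-07). Ifngr2, the other chain, went the other way, at 44.7, 42.0 and 48.8 CPM in B6 CD4 and 25.2, 23.9 and 21.2 in B6 CD8 T cells. Its values were 42.3, 49.9 and 53.3 in CD8.1 and 27.1, 25.3 and 27.3 in CD8.2 T cells (0.94 ± 0.10, adjusted P = 3.81e-06, and 0.87 ± 0.10, adjusted P = 1.09e-05). Gbp2, a guanylate-binding protein gene induced by interferon, was lower in B6 CD4 and CD8.1 T cells (-0.57 ± 0.09 and -0.81 ± 0.09), and Irf1, a transcription factor of this pathway, was too (-0.21 ± 0.07 and -0.38 ± 0.07). For CD8.1 minus B6 CD4, 6 of 16 were called, Ifngr1, Ifnar2 and Irf2 higher and Ifit1, Ifit3 and Isg15 lower, beside 12.8% of all genes. For CD8.2 minus B6 CD8, 2 of 16 were called, Irf1 higher and Irf7 lower, beside 7.94% of all genes.

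Among 12 genes of MHC-like proteins outside the H2 names, 6 were tested. In B6 mice 3 were called (Cd1d1 and Hfe higher and Fcgrt lower in CD4 T cells), in CD8Dual mice 2 (Hfe higher and Fcgrt lower in CD8.1) and for CD8.2 minus B6 CD8 1 (Cd1d1 higher). Of all tested genes, 23.1%, 28.7% and 7.94% were called in these comparisons. Hfe, for a protein of iron balance, was near the limit of detection, with 4 to 11 counts a library in B6 CD4, 0 to 2 in B6 CD8, 9 to 17 in CD8.1 and 3 to 7 in CD8.2 T cells. Fcgrt, the heavy chain of the neonatal Fc receptor, which also pairs with β2-microglobulin, was at 7.45, 5.30 and 6.55 CPM in B6 CD4 and 54.4, 61.3 and 35.4 in B6 CD8 T cells. CD8Dual samples held 5.29, 6.36 and 6.31 in CD8.1 and 58.0, 58.8 and 59.5 in CD8.2 T cells (-2.97 ± 0.18, adjusted P = 3.82e-09, and -3.29 ± 0.18, adjusted P = 2.01e-09). No sample lay between the B6 CD4 and CD8.1 samples on the low side and the other samples on the high side. Cd1d1, which presents lipids to natural killer T cells, was at 30.4 to 32.01 CPM in B6 CD4, 24.04 to 25.5 in B6 CD8, 32.6 to 37.6 in CD8.1 and 32.5 to 35.2 in CD8.2 T cells, with B6 CD4 minus B6 CD8 at 0.34 ± 0.08 (adjusted P = 0.00498) and CD8.2 minus B6 CD8 at 0.45 ± 0.08 (adjusted P = 0.00319).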
